A study of Mus musculus with 4 samples.

Results

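A set of 10 genes of arginine and polyamine metabolism and of alternative macrophage activation were followed through sorted leukocytes (CD45+ cells) of uninjured (sham) and contused mouse spinal cord. They were the rows of the 4 count matrices whose gene symbol was Arg1, Arg2, Nos2, Odc1, Sat1, Slc7a2, Ass1, Chil3, Retnla or Mrc1, which gave 10 of 31053 genes. All 4 libraries were single-cell 3′ RNA libraries from C57BL/6 mice, 1 library per condition, made from pooled animals, which the study's methods number over all groups together but not per library. Per the study's methods the mice were 3 months old and of both sexes, and the cord segment around the lesion was dissociated with enzymes and sorted for live CD45+ cells.

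The first library, called standard sham, came from uninjured mice, with ordinary dissociation. A second uninjured library, called ActD sham, had the transcription inhibitor actinomycin D present during dissociation (Act-seq). The labels of both name healthy spinal cords. The study calls them sham groups, and its methods describe sham surgery as a laminectomy at thoracic level T10 without a contusion. The remaining libraries came from mice 3 and 14 days after a moderate contusion at that level (3 dpi and 14 dpi, days post injury). The study's methods describe actinomycin D in both injured libraries as well, whereas the labels name it for the ActD sham alone. The ActD sham was therefore used as the control, and the standard sham was set beside it. The shams are 1 library each, so a difference between them cannot be told apart from other differences between those libraries.

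Macrophages can use arginine in competing ways. Arginase 1, encoded by Arg1, and the mitochondrial arginase 2, encoded by Arg2, split it into ornithine and urea, whereas the inducible nitric oxide synthase, encoded by Nos2, turns it into nitric oxide and citrulline. Slc7a2 encodes the cationic amino acid transporter CAT2, which brings arginine into the cell, and Ass1 encodes argininosuccinate synthase, which takes citrulline back toward arginine. Odc1, ornithine decarboxylase, makes the polyamine putrescine from ornithine, and Sat1 acetylates polyamines for their breakdown and export. Chil3 (Ym1), Retnla (Fizz1) and Mrc1 (the mannose receptor CD206) are, with Arg1, the usual markers of alternative activation by IL-4 and IL-13 in the mouse.

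Cells were grouped by clusters named from marker genes, and no member served as a marker or as a clustering gene. The level of a gene in a class is its unique molecular identifiers (UMIs) summed over the cells of that class in a library, scaled to CPM by all UMIs of the class, with an exact 95% Poisson interval. With 1 library per condition there was no test between conditions, and every interval covers counting error alone. A gene counted as higher or lower between 2 sums when the ratio of CPM was at least 2-fold and the sums held at least 20 UMIs together. A sum of 0 was set to 3 UMIs for that count, so the fold against it is a lower bound.

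The files held 6827, 2439, 10763 and 11631 barcodes in the order standard sham, ActD sham, 3 dpi, 14 dpi, of which 5035, 2135, 8214 and 9078 cells were kept, with a median of 7426 to 9672 UMIs per cell. Pairs of libraries shared 2 to 24 barcodes among the kept cells. In that order the classes held 117, 114, 317 and 175 border-macrophage-like cells (the Lyve1, Cd163 and Folr2 expressing macrophages of the cord's borders), 0, 0, 2950 and 263 other macrophage-like cells, 2522, 1631, 734 and 4020 microglia-like cells, and 385, 102, 1975 and 1055 neutrophil-like cells. Monocyte-like cells numbered 181, 24, 747 and 694. The class names rest on markers and are meant as X-like throughout. The macrophages of both shams were all border-like and those of 3 dpi were mostly not, so levels are also given for border macrophages alone. The 24 monocytes of the ActD sham were named patrolling and the 747 of 3 dpi classical, while the standard sham had 126 classical and 55 patrolling monocytes. The 694 of 14 dpi formed a single cluster that also scored highest as patrolling. Its leading genes held the classical markers Vcan and Ms4a4c beside the patrolling markers Ace and Adgre4, so it may hold both kinds. A difference between libraries in monocytes therefore cannot be told apart from a difference between kinds of monocyte.

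The heatmap of all 10 genes shows 4 patterns. Arg1 was higher at 3 dpi than in the other libraries in every class shown, including the B cells that serve below as the level of free RNA. Chil3 marked monocytes and neutrophils in all 4 libraries, Mrc1 marked border macrophages in all 4 libraries, and Nos2, Slc7a2 and Retnla stayed at few UMIs almost everywhere.

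**Figure D1:**
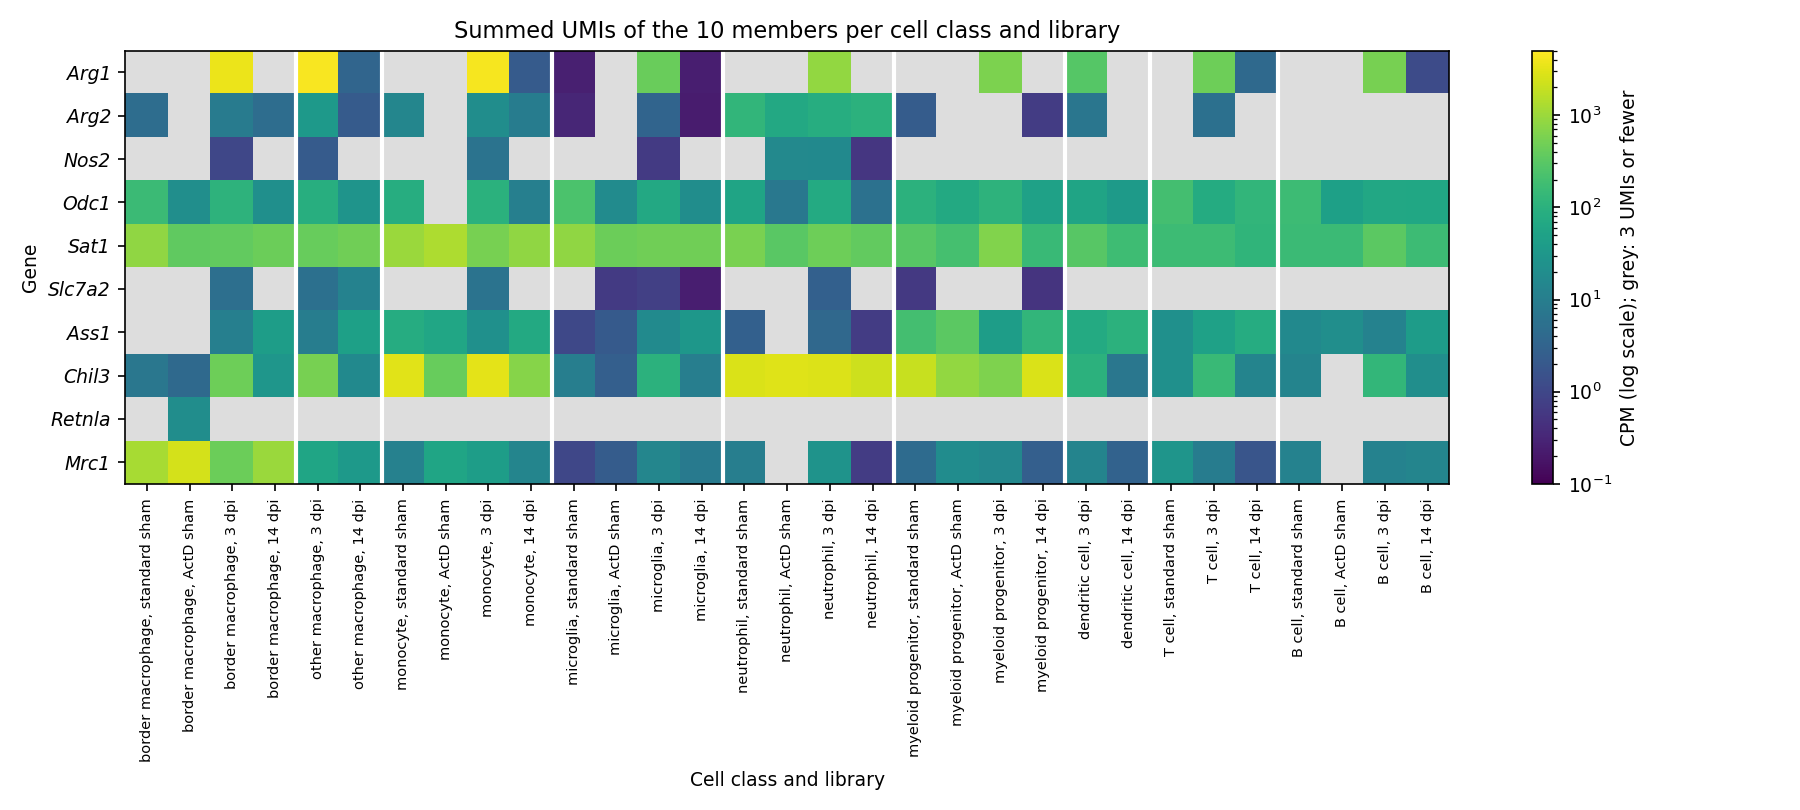
Level of each member (rows) as CPM on a log colour scale in each class and library (columns); grey fields held 3 UMIs or fewer. The 3 dpi columns are the bright ones for Arg1, reaching 4420 CPM in other macrophages, and the Mrc1 row is brightest in the border macrophage columns.

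Arg1 (ENSMUSG00000019987, GRCm38 chr10:24915221-24927484, minus strand) was nearly absent before injury and at 14 dpi, and high at 3 dpi. Macrophages held 1 Arg1 UMI in the standard sham (1.21 CPM), 0 in the ActD sham, 246106 at 3 dpi (4365 CPM, 4348 to 4383) and 16 at 14 dpi (2.90 CPM, 1.66 to 4.71). The 3 dpi level was at least 1830-fold higher than in the ActD sham, against a floor of 3 UMIs for that library. Macrophage Arg1 of 14 dpi relative to 3 dpi gave −10.55 on the log2 scale (−11.36 to −9.86), and the interval at 14 dpi overlapped those of both shams.

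The same held within border macrophages, the only kind found in the shams. Arg1 in border macrophages alone went from 0 UMIs in the ActD sham to 14519 at 3 dpi (3644 CPM, 3584 to 3703), at least 1527-fold higher, and back to 2 UMIs at 14 dpi. The border class of 3 dpi held 317 cells here, 0 with a stricter cell filter and 683 with each cell named on its own. Which cells it covers thus depends on the filter and the naming. Other macrophages held 4420 CPM at 3 dpi and 3.43 CPM at 14 dpi. Monocytes held 0 UMIs in both shams, 28753 at 3 dpi (4364 CPM, 4313 to 4414) and 13 at 14 dpi (2.27 CPM). At 3 dpi the Arg1 levels of all macrophages and of monocytes thus differed by less than their counting intervals, and the log2 ratio of border over other macrophages was −0.28 (−0.30 to −0.25).

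**Figure D2:**
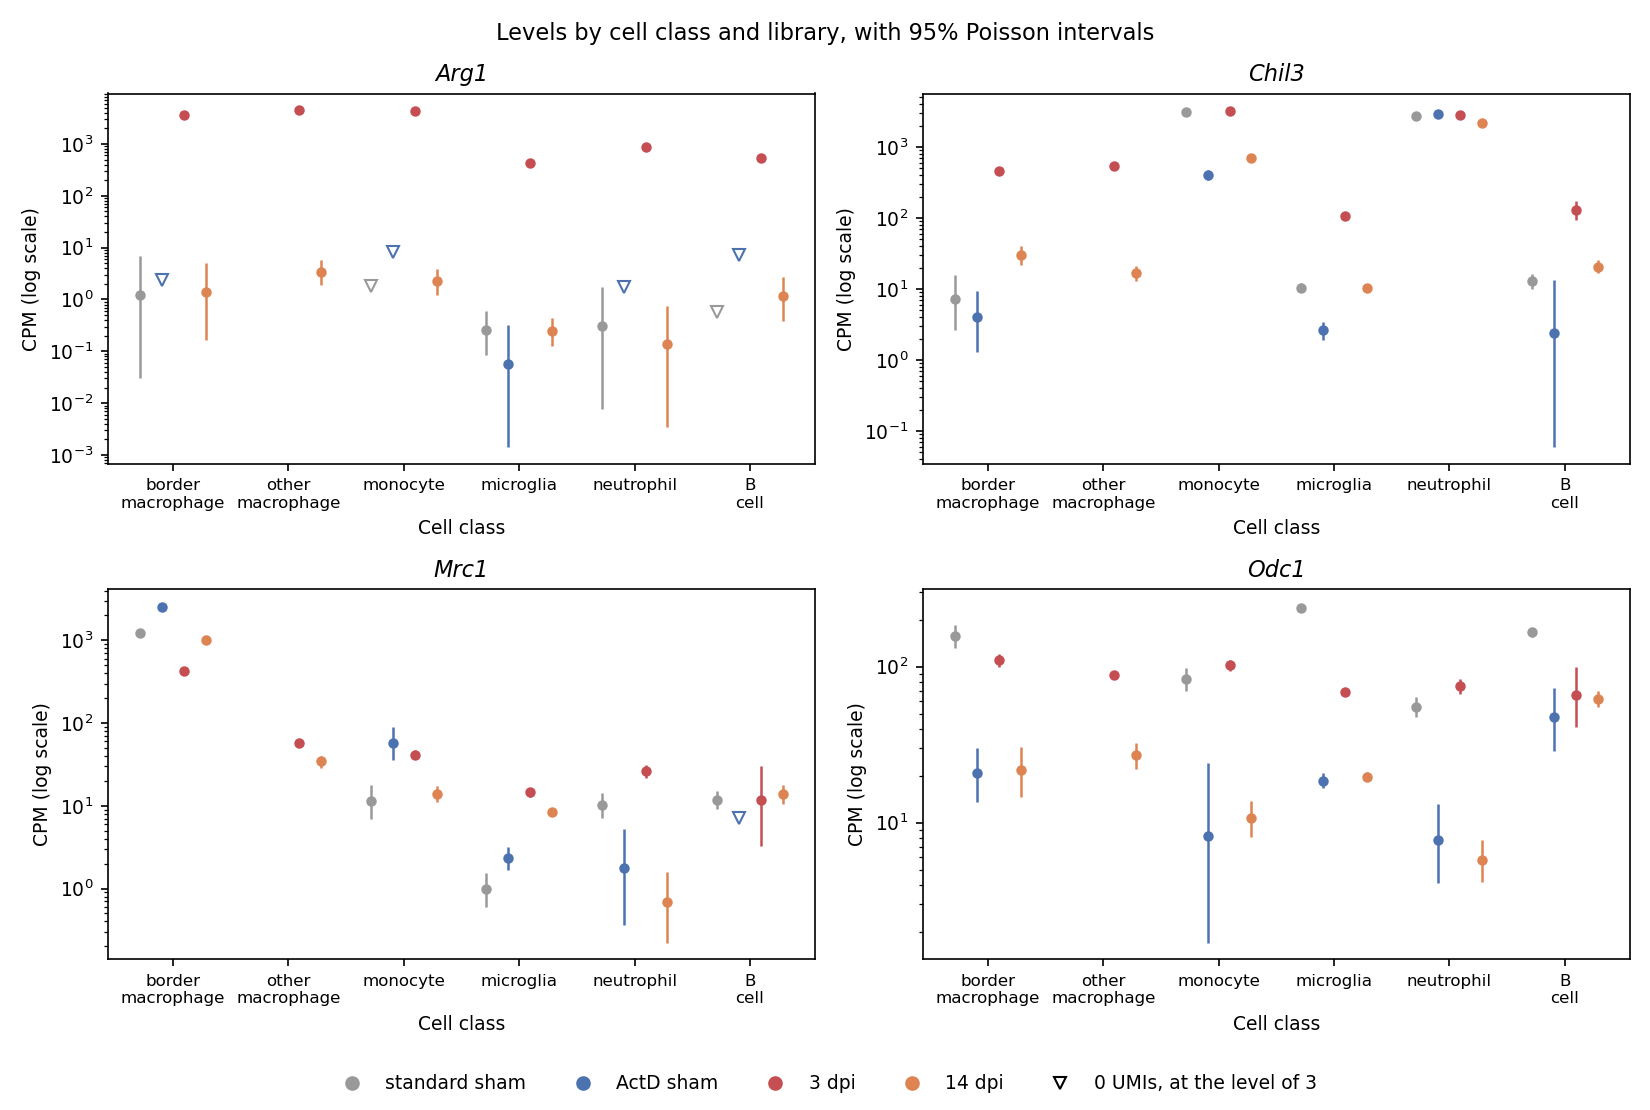
CPM on a log axis of Arg1, Chil3, Mrc1 and Odc1 in 6 classes, 1 point per library with its 95% Poisson interval; open triangles stand for 0 UMIs, drawn at the level of 3 UMIs. Arg1 points of 3 dpi lie far above the other 3 libraries in every class, from 424 CPM in microglia to 4420 CPM in other macrophages, whereas Odc1 is high in the standard sham and at 3 dpi.

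Arg1 was uneven among macrophages. At 3 dpi 32 of 3267 macrophages had no Arg1 UMI and 961 (29.4%) had 100 or more, up to 546 in a single cell. Per 10000 UMIs of a cell the median was 31.3, with 10% of cells under 3.65 and 10% over 104. The main macrophage cluster (2681 cells) held 4574 CPM of Arg1 together with 2138 CPM of Gpnmb, a lipid- and lysosome-associated macrophage gene. The cycling cluster (232 cells) held 2922 CPM of Arg1 and 722 CPM of Gpnmb, and the interferon-response cluster (37 cells) 2251 CPM of Arg1. The border cluster had 3644 CPM of Arg1 beside 356 CPM of Gpnmb, and the monocyte cluster 4364 CPM of Arg1 beside 315 CPM of Gpnmb. Clusters with high summed Arg1 at 3 dpi thus had high or low summed Gpnmb. Whether both genes were high in the same cells was not tested.

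Monocytes were the more divided class. Their median was 11.8 Arg1 UMIs per 10000, 25% of the cells lay under 3.47 and 25% over 62.5, and 98 of 747 cells had 100 or more Arg1 UMIs. By mean, a macrophage carried 75.3 Arg1 UMIs and a monocyte 38.5, and the median monocyte held 8230 UMIs in all against 16116 in the median macrophage.

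Arg1 UMIs at 3 dpi also appeared in lymphocytes. B cells, which served as the level of free RNA in the droplets, held 0, 0 and 5 Arg1 UMIs in the standard sham, ActD sham and 14 dpi libraries but 181 in 125 cells at 3 dpi (537 CPM, 462 to 621). T cells held 1.81 and NK cells 1.73 Arg1 UMIs per cell at 3 dpi, against 1.45 in B cells, and the highest B cell had 6. After each cell was thinned to 1000 UMIs, an Arg1 UMI was found in 81.5% of macrophages (80.1 to 82.8, exact binomial interval; 99.0% unthinned), 67.2% of monocytes (95.6% unthinned), 52.6% of neutrophils (79.0%), 42.4% of B cells (33.6 to 51.6; 71.2%) and 29.9% of microglia (26.6 to 33.3; 95.4%). The median depths of those classes were 16116, 8230, 2255, 2504 and 21953.5 UMIs. The share in microglia lay below the share in B cells, so it is not read as expression at this depth, although unthinned microglia held 10.2 Arg1 UMIs per cell against 1.45 in B cells.

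The other macrophage genes gave a yardstick for this background. Relative to the CPM in macrophages, B cells held 12.3% of Arg1, 14.0% of Gpnmb, 10.9% of Pf4 and 15.5% of Thbs1, and microglia held 9.71%, 10.1%, 9.66% and 9.99% of the same genes. Arg1 in microglia was 424 CPM, and its log2 ratio over B cells was −0.34 (−0.55 to −0.12). Counted as UMIs per cell, microglia held 13.6% of the macrophage Arg1, 14.1% of Gpnmb, 13.5% of Pf4 and 14.0% of Thbs1, more than the 1.92%, 2.19%, 1.70% and 2.42% in B cells. These 4 genes lay close together in microglia, but other genes counted the same way did not. By CPM microglia held 16.1% of the macrophage level of Ms4a7, 15.7% of Lyz2 and 128% of Fn1, against 11.1%, 12.96% and 32.2% in B cells. Of 734 microglia, 10 had 100 or more Arg1 UMIs, and the top 10% of microglia carried 56.1% of the class's Arg1 UMIs, against 28.7% in B cells. The part of free RNA in the microglial Arg1 was not tested.

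In monocytes the macrophage genes did not keep 1 ratio: Arg1 stood at 99.96% of the macrophage CPM, Gpnmb at 16.6%, Pf4 at 51.8% and Thbs1 at 220%. Arg1 in monocytes was 3.02 above B cells on the log2 scale (2.81 to 3.24), and 6 of 9 members (Arg1, Arg2, Nos2, Slc7a2, Chil3 and Mrc1) were at least 2-fold above B cells and 0 below, where 17.0% of 9398 genes were higher and 20.9% lower. The B cells held 1 UMI each of Arg2, Nos2 and Slc7a2, and the Nos2 and Slc7a2 ratios of monocytes had log2 intervals of −1.53 to 6.37 and −1.49 to 6.41. Neutrophils held 854 CPM of Arg1 at 3 dpi, 0.67 above B cells (0.45 to 0.89) and under the 2-fold line, with Gpnmb at 22.2%, Pf4 at 15.2% and Thbs1 at 34.8% of the macrophage CPM. Of 8 members in neutrophils Arg2, Nos2, Chil3 and Mrc1 were at least 2-fold above B cells and Ass1 below, where 19.7% of all genes were higher and 14.2% lower. In counts per cell a neutrophil carried 2.03 Arg1 UMIs, close to the 1.81 of a T cell.

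**Figure D3:**
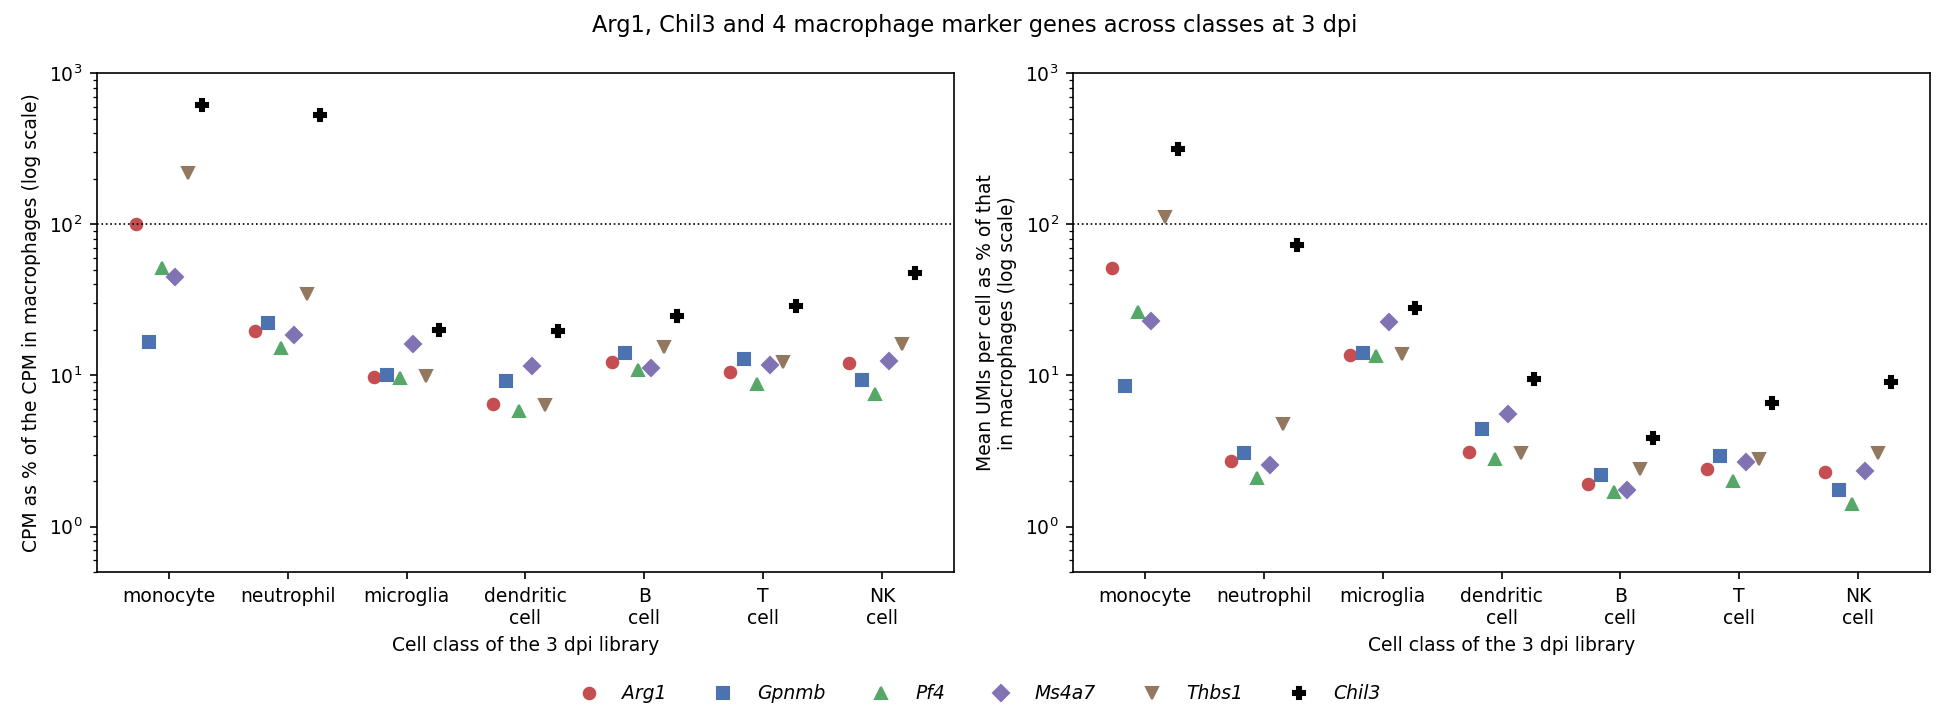
Arg1, Chil3 and 4 macrophage genes in 7 other classes at 3 dpi as percent of the level in macrophages (dotted line at 100%), on log axes, by CPM on the left and by mean UMIs per cell on the right. Arg1 lies among Gpnmb, Pf4 and Thbs1 in microglia and B cells, at 9.71% and 12.3% of the macrophage CPM, with Ms4a7 at 16.1% and 11.1%, and well above Gpnmb in monocytes.

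Arg2 (ENSMUSG00000021125, chr12:79130777-79156301, plus strand) was held by neutrophils in all 4 libraries and by macrophages at 3 dpi. Neutrophils carried 85.4, 97.5, 15.6 and 82.8% of the Arg2 UMIs of each library in the usual order, and macrophages 74.98% at 3 dpi. Neutrophils held 123 CPM in the standard sham (112 to 136), 68.7 in the ActD sham (56.8 to 82.4), 83.8 at 3 dpi (75.7 to 92.5) and 104 at 14 dpi (96.4 to 111). None of these Arg2 levels differed from the ActD sham by 2-fold. B cells held 3, 0, 1 and 1 Arg2 UMIs, so the neutrophil level was far above that of free RNA. Macrophages held 4 and 0 Arg2 UMIs in the shams, 33.5 CPM at 3 dpi (32.0 to 35.1) and 2.90 CPM at 14 dpi, at least 14.1-fold higher at 3 dpi than in the ActD sham. At 3 dpi the Arg2 level was 35.4 CPM in other macrophages and 9.03 CPM in border macrophages, a log2 ratio of border over other macrophages of −1.97 (−2.49 to −1.496), beside −0.28 for Arg1. Monocytes at 3 dpi held 20.03 CPM of Arg2 and microglia 3.28 CPM, the latter near the 1 UMI (2.97 CPM) of the B cells.

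Nos2 (ENSMUSG00000020826, chr11:78920787-78960254, plus strand) was scarce in all classes. Neutrophils held 1 UMI in the standard sham, 28 UMIs in the ActD sham (16.6 CPM, 11.03 to 23.98), 80 UMIs at 3 dpi (17.02 CPM, 13.5 to 21.2) and 4 UMIs at 14 dpi (0.548 CPM, 0.149 to 1.40). The Nos2 level of the ActD sham neutrophils came from 12 of 102 cells. At 14 dpi 4 further Nos2 UMIs lay in 3 of 30 endothelial-like cells. The log2 ratio of Nos2 in the standard over the ActD sham was −5.74 (−11.09 to −3.14), resting on 1 UMI, so 3 dpi lay at the level of one sham and far above the other. Macrophages held 0, 0, 119 and 0 Nos2 UMIs, the 119 being 2.11 CPM (1.75 to 2.53). With 0 UMIs in 114 cells of the ActD sham, whose floor is 2.39 CPM, a difference of Nos2 from sham was not detectable in macrophages at this depth, whereas the level of 14 dpi was at most 0.258-fold that of 3 dpi. Monocytes held 40 UMIs at 3 dpi (6.07 CPM, 4.34 to 8.27) and 2 at 14 dpi. B cells had 1 Nos2 UMI at 3 dpi (2.97 CPM, 0.0751 to 16.5), an interval that holds the macrophage, microglial and monocyte levels of Nos2.

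Within single unthinned cells at 3 dpi, Nos2 was found together with Arg1 in macrophages and monocytes, and with or without it in neutrophils. Of 3267 macrophages 62 (1.90%, 1.46 to 2.43) had a Nos2 UMI, and all 62 also had an Arg1 UMI, as did 3235 of all macrophages. All 16 of 747 monocytes with a Nos2 UMI had Arg1 too. After thinning to 5000 UMIs, which left 3101 macrophages, 28 cells held both genes and 2956 held Arg1 alone, a Nos2 share of 0.938% (0.624 to 1.35), and 0 of 117 cells without Arg1 had Nos2, an interval of 0 to 3.10%. Those 28 cells carried a mean of 48.3 Arg1 UMIs and the cells without Nos2 a mean of 22.2. The intervals overlap, so a difference between the shares was not detectable at this depth. A share this low also moves with the draw of UMIs, since separate draws of 3000 UMIs per cell put Nos2 in 0.468% and in 0.781% of macrophages, and at 1000 UMIs it was 0.367% (0.190 to 0.641), as low as 0.214% when each cell was named on its own. In neutrophils at 3 dpi 57 cells had Nos2, 43 of them with Arg1 and 14 without, and all 12 Nos2 cells of the ActD sham lacked Arg1. Arg1 was thus in 75.4% of the 3 dpi neutrophils with Nos2, against 79.1% of those without. Since 71.2% of the B cells of 3 dpi also had an Arg1 UMI, a shared UMI need not mean that a cell expressed both genes.

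The macrophages of 3 dpi were then set in order of their Arg1 UMIs out of 5000, in 5 strata of 117, 436, 550, 1116 and 882 cells. The share with Nos2 was 0, 0.229, 0.364, 0.538 and 2.15% from the lowest to the highest stratum, the last on 19 cells with an interval of 1.30 to 3.34%. Arg2 was found in 10.3% of cells without Arg1 and 17.9% (15.4 to 20.6) of the cells with 30 or more Arg1 UMIs, Odc1 in 28.2% and 37.4%, and Mrc1 in 11.1% and 27.3%. Sat1 ran the other way, from 87.2% (79.7 to 92.6) of cells without Arg1 to 68.8% (65.6 to 71.9) of the highest stratum. The mean of Sat1 was 2.68 and 1.38 UMIs per 5000 in those strata. Chil3 was found in 65.1 to 70.0% of cells in all 5 strata. Its mean from the lowest to the highest stratum was 2.15, 2.82, 2.49, 2.46 and 3.78 UMIs per 5000. The mean of Mrc1 over the same strata was 0.34, 0.42, 0.42, 0.48 and 0.43.

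**Figure D4:**
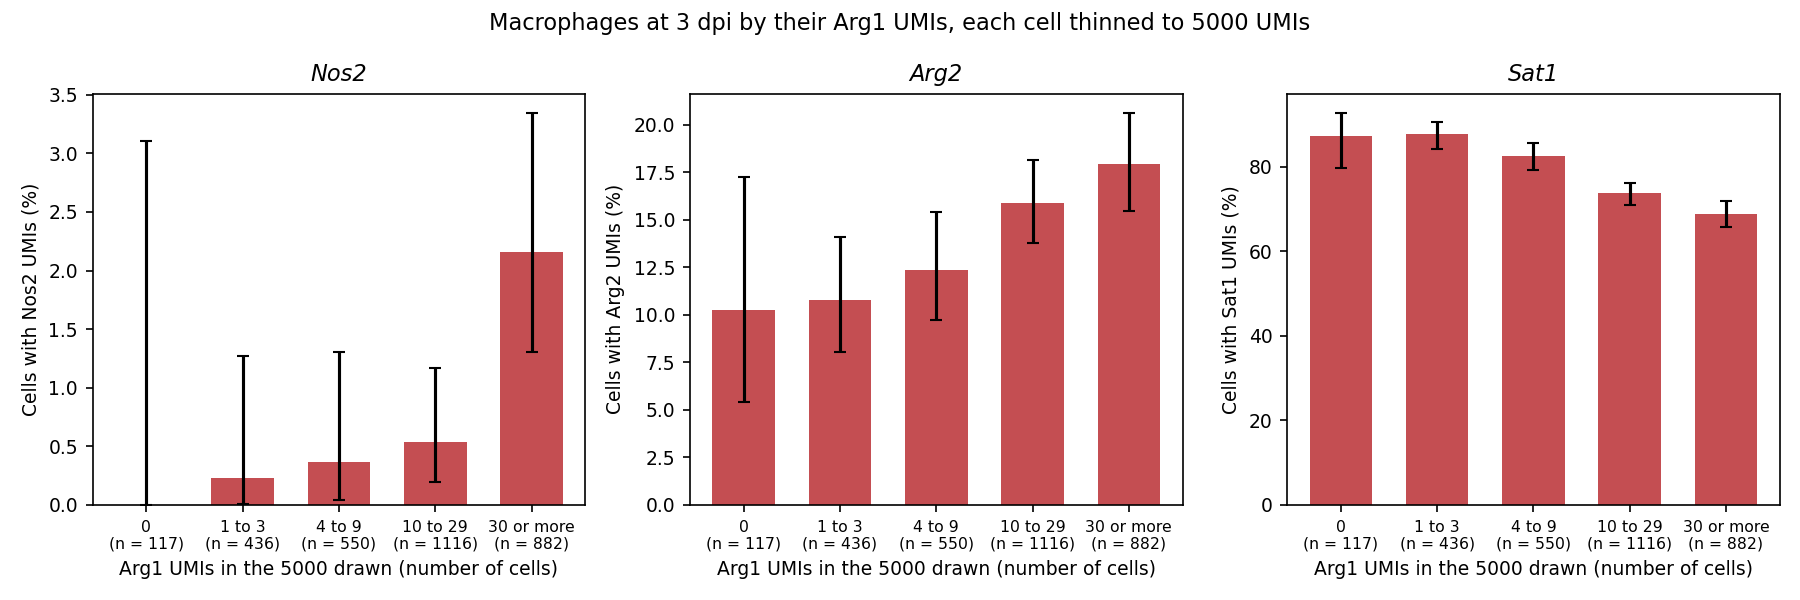
Share of macrophages at 3 dpi with a UMI of Nos2, Arg2 or Sat1 (bars, percent, from 0) by the number of Arg1 UMIs among 5000 drawn per cell, with 95% exact binomial intervals. Nos2 reaches 2.15% in the highest of the 5 strata. Arg2 is at 10.3% in the lowest and 17.9% in the highest, with overlapping intervals, and Sat1 at 87.2% and 68.8%.

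Slc7a2 (ENSMUSG00000031596, chr8:40862396-40922308, plus strand), the arginine transporter, was low, and appeared in macrophages after injury. Macrophages held 0, 1, 310 and 52 Slc7a2 UMIs in the libraries in their usual order, and at 3 dpi the level was 5.499 CPM (4.90 to 6.15). The ratio to the ActD sham was 6.91 at 3 dpi and 11.9 at 14 dpi, each resting on 1 sham UMI, with log2 intervals of 0.30 to 8.10 and 1.03 to 8.90. Other macrophages held 5.52 CPM of Slc7a2 at 3 dpi and 12.01 CPM (8.89 to 15.9) at 14 dpi, higher by 1.12 on the log2 scale, a call that was lost with TMM scaling. Border macrophages held 21 and 3 UMIs, a log2 ratio of −1.33 (−3.72 to 0.41). Unlike Arg1, Slc7a2 was thus still present at 14 dpi, in 28 of the 263 other macrophages. Monocytes held 0, 0, 41 and 0 UMIs. B cells held 1 UMI at 3 dpi and 0 in the other libraries.

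Ass1 (ENSMUSG00000076441, chr2:31470207-31520672, plus strand), argininosuccinate synthase, was higher at 14 than at 3 dpi in macrophages, where most other members were lower. Macrophages held 1, 0, 552 and 253 Ass1 UMIs, which was 9.79 CPM at 3 dpi (8.99 to 10.6) and 45.9 CPM at 14 dpi (40.4 to 51.9), at least 4.10-fold and 19.2-fold higher than the ActD sham. Border macrophages alone gave 10.8 CPM at 3 dpi and 41.8 CPM at 14 dpi. Microglia went from 2.10 CPM of Ass1 in the ActD sham (1.48 to 2.90) to 17.9 at 3 dpi and 30.1 at 14 dpi (28.5 to 31.7). B cells held Ass1 as well, at 16.6, 21.3, 11.9 and 38.8 CPM, the 11.9 on 4 UMIs. After injury the levels in macrophages, border macrophages and microglia did not exceed those in B cells by 2-fold. In microglia the log2 ratio over B cells was 0.59 (−0.78 to 2.48) at 3 dpi and −0.37 (−0.60 to −0.13) at 14 dpi. B cells too held more Ass1 by CPM at 14 than at 3 dpi. The 125 B cells of 3 dpi formed 1 cluster led by Cd79a and Igkc. At 14 dpi 237 of the 453 B cells lay in a cluster with Myl4, Vpreb3 and Igll1 among its leading genes. The step in B cells therefore cannot be told apart from a difference between kinds of B cell. Whether the step was particular to macrophages was not tested.

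Ass1 differed among the microglial clusters. At 14 dpi the Lpl-, Spp1- and Apoc1-high cluster (2429 cells) held 38.1 CPM (36.1 to 40.2), the interferon-response cluster 46.3 CPM and the P2ry12-high cluster (1361 cells) 4.30 CPM (3.16 to 5.71). In the ActD sham the small Lpl-high cluster (80 cells) held 14.8 CPM and the P2ry12-high cluster 1.16 CPM. The P2ry12-high cluster of 14 dpi thus lay below the 38.8 CPM of the B cells of that library and the Lpl-high cluster at their level. Monocytes held 82.0, 60.6, 22.6 and 72.6 CPM of Ass1, lowest at 3 dpi, where the log2 ratio over the ActD sham was −1.42 (−2.07 to −0.71), a call lost with TMM scaling.

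Odc1 (ENSMUSG00000011179, chr12:17544794-17551505, plus strand), the entry to polyamine synthesis, was raised at 3 dpi and in the standard sham, and low in the ActD sham and at 14 dpi. Macrophages held 157, 20.7, 89.6 and 25.6 CPM in the order standard sham, ActD sham, 3 dpi, 14 dpi, and microglia 237, 18.5, 68.6 and 19.8 CPM. Monocytes held 83.2, 8.27, 102 and 10.7 CPM and neutrophils 55.003, 7.70, 74.7 and 5.75 CPM of Odc1. The 3 dpi level was above the ActD sham by 2.12 on the log2 scale in macrophages (1.56 to 2.73), 1.89 in microglia (1.71 to 2.07), 3.62 in monocytes (2.07 to 5.90) and 3.28 in neutrophils (2.48 to 4.2004).

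Odc1 also differed between the shams. The standard sham was above the ActD sham by 2.92 in macrophages (2.30 to 3.59), 3.68 in microglia (3.51 to 3.84), 3.33 in monocytes (1.75 to 5.63) and 2.84 in neutrophils (2.02 to 3.77) on the log2 scale. The Odc1 levels of 3 dpi lay below those of the standard sham in macrophages and microglia. The libraries with raised Odc1 in these classes, standard sham and 3 dpi, share software version 3.0.1. The ActD sham and 14 dpi share version 3.1.0. Version, dissociation and injury therefore cannot be told apart for this pattern. B cells held 166, 47.3, 65.3 and 62.1 CPM of Odc1. At 3 dpi the Odc1 levels of macrophages, microglia, monocytes and neutrophils were thus all within 2-fold of the B cells by CPM. How far free RNA of other cells contributes was not tested.

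Sat1 (ENSMUSG00000025283, chrX:155213132-155216449, minus strand), the polyamine acetylase, was present in every class and within 2-fold of the ActD sham in macrophages and microglia after injury. Macrophages held 847, 355, 395 and 473 CPM and microglia 831, 441, 489 and 479 CPM. Relative to the ActD sham Sat1 was 0.16 higher in macrophages (0.02 to 0.29) and 0.15 higher in microglia at 3 dpi (0.11 to 0.19) on the log2 scale, under the 2-fold line. As for Odc1, the larger step lay between the shams, 1.26 in macrophages (1.08 to 1.43) and 0.92 in microglia (0.88 to 0.95). Monocytes had 998, 1331, 535 and 831 CPM of Sat1, at least 2-fold lower at 3 dpi than in the ActD sham, a call lost with TMM scaling. Neutrophils had 567, 312, 451 and 375 CPM, and B cells 161, 159, 323 and 169 CPM, at least 2-fold higher at 3 dpi.

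Chil3 (ENSMUSG00000040809, chr3:106147554-106167564, minus strand), the chitinase-like lectin Ym1, whose near copy Chil4 can share reads with it, was foremost a gene of monocytes, neutrophils and their progenitors. Neutrophils held 2713, 2934, 2800 and 2169 CPM in the order standard sham, ActD sham, 3 dpi, 14 dpi, and no ratio to the ActD sham reached 2-fold. Monocytes held 3128, 402, 3237 and 707 CPM. The high values were those of the standard sham and 3 dpi, whose monocytes were mostly or all named classical. Macrophages held 6 and 5 Chil3 UMIs in the shams, 527 CPM at 3 dpi (521 to 533) and 20.1 CPM at 14 dpi, with a log2 ratio of 3 dpi over the ActD sham of 7.05 (5.83 to 8.67), and of 6.85 in border macrophages alone. B cells held 131 CPM of Chil3 at 3 dpi (94.9 to 175), 24.8% of the macrophage level and above the 106 CPM of microglia. By CPM the microglial level, 5.34 above the ActD sham on the log2 scale, thus did not exceed that of the B cells. In UMIs, the 734 microglia held 1877 of Chil3 and the 125 B cells 44, at median depths of 21953.5 and 2504 UMIs. The part of free RNA in the microglial Chil3 was not tested.

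Within the neutrophil lineage Chil3 and Arg2 ran in opposite orders in the libraries other than 3 dpi. Chil3 was highest in a progenitor cluster led by Fcnb, Camp and Cebpe (cluster 16) at 6448 CPM in the standard sham and 6363 CPM at 14 dpi, lower in the Ltf- and Ngp-high neutrophils (cluster 10) at 4817, 4087, 2927 and 3308 CPM, and 183, 440 and 88.2 CPM in the Retnlg- and Cxcr2-high neutrophils (cluster 5) of the standard sham, ActD sham and 14 dpi. Arg2 ran upward over the same clusters, with 7.11, 67.2 and 191 CPM in the standard sham, 26.9 and 159 CPM in clusters 10 and 5 of the ActD sham, and 0.934, 25.4 and 246 CPM at 14 dpi.

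The 3 dpi neutrophils broke this order. Cluster 5 of 3 dpi held 3971 CPM of Chil3 (3850 to 4095) together with 128 CPM of Arg2, and the main 3 dpi cluster, led by Hdc, G0s2 and Cxcr2 (cluster 3, 1561 cells), held 2454 CPM of Chil3 and 71.0 CPM of Arg2. The free-RNA level of Chil3 at 3 dpi, 131 CPM in B cells, is far below these values. Nos2 was in cluster 5 as well, at 41.2 CPM in the ActD sham (25.8 to 62.4) and 34.1 CPM at 3 dpi (23.8 to 47.5), but at 0.684 and 0.387 CPM, 1 UMI each, in cluster 5 of the standard sham and 14 dpi.

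**Figure D5:**
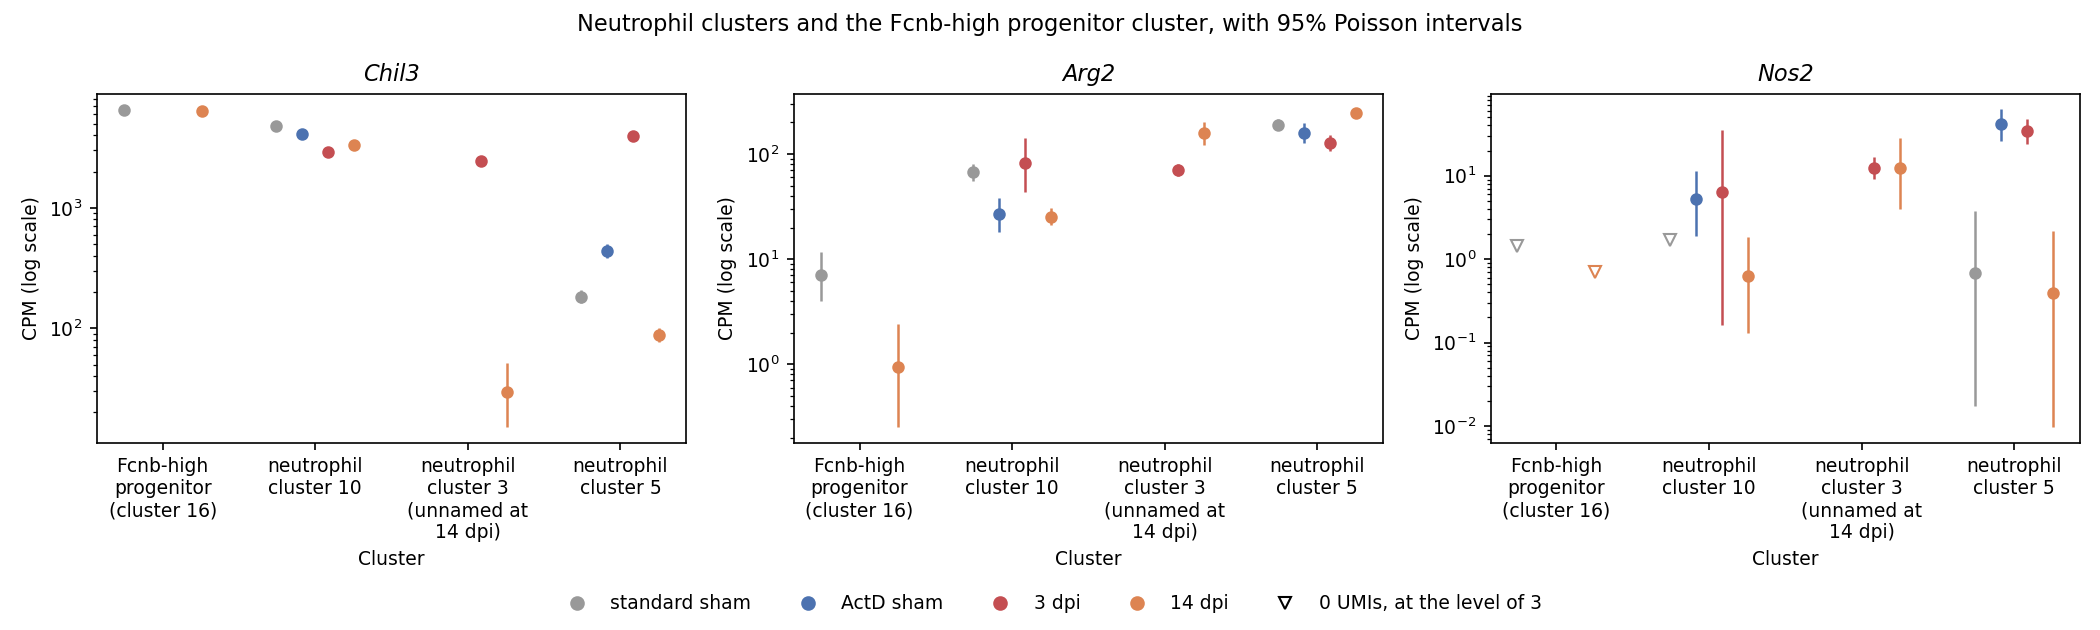
CPM on log axes of Chil3, Arg2 and Nos2 in the Fcnb-high progenitor cluster and 3 neutrophil clusters, 1 point per library with 95% Poisson intervals. Open triangles stand for 0 UMIs at the level of 3 UMIs. Clusters with under 20 cells in a library have no point. Cluster 5 of 3 dpi has 3971 CPM of Chil3, against 88.2 to 440 CPM in the other libraries, and Arg2 is lowest in the progenitor cluster.

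Retnla (ENSMUSG00000061100, chr16:48842551-48844461, plus strand), the resistin-like protein Fizz1, was nearly absent from macrophages at 3 dpi. Its neighbour and near copy Retnlg is a neutrophil gene that was counted separately. Border macrophages held 3 UMIs in the standard sham, 25 in the ActD sham (19.9 CPM, 12.9 to 29.3), 3 at 3 dpi and 0 at 14 dpi. The 25 UMIs came from 2 of 114 cells, 24 of them from a single cell, so the lower level of 3 dpi and 14 dpi rests on that cell. Other macrophages held 1 and 0 Retnla UMIs at 3 and 14 dpi, and monocytes and B cells held 0 in all libraries, and the 3267 macrophages of 3 dpi held 4 Retnla UMIs beside 246106 of Arg1.

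Mrc1 (ENSMUSG00000026712, chr2:14229392-14332057, plus strand), the mannose receptor, was highest in border macrophages at all times and lower in them after injury. Mrc1 did not serve to name the clusters here. Border macrophages held 1211 CPM in the standard sham (1137 to 1289), 2505 in the ActD sham (2418 to 2594), 431 at 3 dpi (411 to 452) and 999 at 14 dpi (948 to 1052). The log2 ratio over the ActD sham was −2.54 at 3 dpi (−2.62 to −2.45), −1.33 at 14 dpi (−1.42 to −1.24) and −1.05 in the standard sham (−1.15 to −0.95), the last a call lost with TMM scaling. Other macrophages held 57.1 CPM of Mrc1 at 3 dpi and 34.3 CPM at 14 dpi, so border exceeded other macrophages by 2.92 (2.83 to 3.00) and 4.86 (4.61 to 5.12) on the log2 scale. With a stricter cell filter 0 cells of 3 dpi fell in a cluster named border macrophage, so the border class of 3 dpi depends on that filter. Of all 12085 genes compared between border and other macrophages at 3 dpi, 9.07% were at least 2-fold higher and 3.03% lower in border macrophages, and of the members Mrc1 was higher and Arg2 and Nos2 lower, Nos2 on 4 UMIs with a log2 interval of −3.03 to 0.27. At 14 dpi Mrc1 was higher and Slc7a2 lower of 6 members, where 10.5% of all genes were higher and 4.6% lower.

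Mrc1 and Arg1 thus differed in time and cell class. The border macrophages of 3 dpi held 431 CPM of Mrc1 with 3644 CPM of Arg1, other macrophages held 57.1 CPM of Mrc1 with 4420 CPM of Arg1, and at 14 dpi border macrophages held 999 CPM of Mrc1 and 2 UMIs of Arg1. Microglia held 0.997, 2.33, 14.6 and 8.52 CPM of Mrc1, and after injury these levels were within 2-fold of the 11.9 and 13.7 CPM in B cells of 3 and 14 dpi. The B cells held 63, 0, 4 and 59 Mrc1 UMIs in the usual order, and in the standard sham lay above the microglia by CPM. Their Mrc1 level need not be that of free RNA, and the part of free RNA was not tested.

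Upstream sequence from RefSeq (GRCm38.p6) was at hand for 6 of the 10 members, Odc1, Sat1, Ass1, Chil3, Retnla and Mrc1. The stretches before Retnla, Mrc1 and Chil3 are shown because these 3 alternative activation genes differed most in where they were found, Retnla almost nowhere, Mrc1 in border macrophages and Chil3 in monocytes and neutrophils. They end at the base before the annotated gene start, are written 5′ to 3′ on the strand of the gene, and have motif matches in capitals. The motifs searched on both strands were a STAT-type motif (TTC, any 4 bases, GAA), found in 5.85% of 32851 such upstream sequences of 250 bases, C/EBP-type TTGCNNAA (9.56%), PU.1-type GAGGAA (23.3%), E-box CACGTG (6.02%) and TATA-type TATAAA (12.4%). The capitals mark, in Retnla, PU.1-type on the other strand, STAT-type and C/EBP-type in that order, and in Mrc1, PU.1-type on the other strand. A TATA-type match before the RefSeq start of Retnla lies past the end of the stretch shown. No motif of the 5 was found before Chil3. A match describes letters and not a bound site.
Retnla, chr16:48842359-48842550, plus strand: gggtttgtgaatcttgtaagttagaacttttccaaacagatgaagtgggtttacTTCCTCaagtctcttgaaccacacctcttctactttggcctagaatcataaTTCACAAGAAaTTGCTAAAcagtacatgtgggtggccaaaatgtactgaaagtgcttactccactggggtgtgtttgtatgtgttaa
Mrc1, chr2:14229164-14229391, plus strand: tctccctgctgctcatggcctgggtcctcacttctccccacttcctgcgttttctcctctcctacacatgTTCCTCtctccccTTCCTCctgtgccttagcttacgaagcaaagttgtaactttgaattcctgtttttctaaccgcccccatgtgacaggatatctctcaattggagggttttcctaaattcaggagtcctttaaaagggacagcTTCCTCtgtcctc
Chil3, chr3:106167565-106167814, minus strand: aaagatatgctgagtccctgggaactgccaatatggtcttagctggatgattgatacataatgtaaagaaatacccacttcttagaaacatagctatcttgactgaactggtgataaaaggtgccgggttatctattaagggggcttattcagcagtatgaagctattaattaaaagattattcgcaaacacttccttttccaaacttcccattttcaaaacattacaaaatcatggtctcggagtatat

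Counted over all members, the comparison of 3 dpi with the ActD sham gave 6 members higher and 2 lower of 10 in macrophages (Arg1, Arg2, Odc1, Slc7a2, Ass1 and Chil3 against Retnla and Mrc1), where 10.2% of 12216 genes were higher and 30.4% lower. In border macrophages the same 6 were higher and the same 2 lower of 9, with 11.6% and 19.2% of all genes. Monocytes had 4 members higher (Arg1, Arg2, Odc1, Chil3) and 2 lower (Sat1, Ass1, both lost with TMM scaling) of 9, with 9.71% and 26.0% of all genes. Microglia had 6 higher (Arg1, Arg2, Odc1, Ass1, Chil3, Mrc1) and 0 lower of 8, with 13.6% and 33.6% of all genes. By CPM all 6 lay within 2-fold of the B cells of 3 dpi. Of 7 members compared by CPM, 0 differed from them by 2-fold in either direction, where 17.4% of 11228 genes were higher in microglia and 19.6% lower. Counted as UMIs per cell, microglia held more of each of the 6 than B cells, at a median depth of 21953.5 against 2504 UMIs. Those B cells held 1 Arg2, 4 Ass1 and 4 Mrc1 UMIs. Of the shams, B cells exceeded microglia by CPM in Ass1 in both, in Odc1 in the ActD sham only and in Mrc1 in the standard sham only. At 14 dpi they exceeded microglia in Ass1, Odc1 and Mrc1. For these genes the B-cell level need not be that of free RNA, and the part of free RNA was not tested. Neutrophils had 4 higher (Arg1, Odc1, Ass1, Mrc1) and 0 lower of 8, with 54.3% and 6.89% of all genes, so the members' count is near the background, and Ass1 was lost with TMM scaling.

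In the comparison of 14 with 3 dpi most calls were lower. Macrophages had 5 lower (Arg1, Arg2, Nos2, Odc1, Chil3) and 2 higher (Ass1, Mrc1) of 9, where 9.87% of all genes were lower and 17.6% higher, and border macrophages made up 317 of 3267 macrophages at 3 dpi and 175 of 438 at 14 dpi. Border macrophages had 4 lower (Arg1, Odc1, Slc7a2, Chil3) and 2 higher (Ass1, Mrc1) of 8, with 8.49% and 12.7% of all genes, TMM scaling adding Arg2 as lower. Other macrophages had 5 lower (Arg1, Arg2, Nos2, Odc1, Chil3) and 2 higher (Slc7a2, Ass1) of 9, with 11.1% and 15.1% of all genes, where TMM scaling dropped Slc7a2 and added Mrc1 as lower. Monocytes had 7 lower (all tested but Sat1 and Ass1) and 1 higher (Ass1) of 9, with 9.68% and 17.6% of all genes. The monocytes of 3 dpi were named classical, and those of 14 dpi patrolling, though classical markers were also among their leading genes. Microglia had 5 lower (Arg1, Arg2, Odc1, Slc7a2, Chil3) and 0 higher of 8, with 15.1% and 11.5% of all genes. Neutrophils had 5 lower (Arg1, Nos2, Odc1, Ass1, Mrc1) and 0 higher of 8, where 58.9% and 5.9% of all genes were lower and higher, and TMM scaling added Arg2 as higher. This comparison shares the 3 dpi library with the one before, and both comparisons with sham share the ActD sham. The comparisons of 3 dpi with the ActD sham and with 14 dpi, and of the standard with the ActD sham, also cross software versions (3.0.1 against 3.1.0). What this contributes was not tested.

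At 14 dpi relative to the ActD sham fewer members were away from sham. Macrophages had 3 higher (Slc7a2, Ass1, Chil3) and 2 lower (Retnla, Mrc1) of 7, with 7.44% and 12.7% of all genes, border macrophages 2 higher (Ass1, Chil3) and 2 lower of 6 (5.08% and 6.13%), and microglia 3 higher (Ass1, Chil3, Mrc1) and 1 lower (Slc7a2, lost with TMM scaling) of 6 (5.85% and 21.9%). Monocytes had 1 higher (Arg2, on 1 sham UMI) and 1 lower (Mrc1) of 6 (5.96% and 9.51%), and neutrophils 0 higher and 1 lower (Nos2) of 5 (5.47% and 6.18%). TMM scaling added Chil3 as higher in monocytes of 14 dpi. Between the shams, macrophages had Odc1 and Sat1 higher and Retnla and Mrc1 lower in the standard sham, 2 and 2 of 4 (5.56% and 16.6%). Microglia had Odc1 and Chil3 higher and Ass1 and Mrc1 lower, 2 and 2 of 5 (6.47% and 24.8%), where TMM scaling dropped both lower calls and added Sat1. Monocytes, mostly classical in the standard sham and all patrolling in the ActD sham, had Arg2, Odc1 and Chil3 higher and Mrc1 lower, 3 and 1 of 6 (8.07% and 18.4%), and neutrophils Odc1 and Mrc1 higher and Nos2 lower, 2 and 1 of 6 (16.7% and 8.17%). In macrophages TMM scaling dropped Mrc1 between the shams. The median of all genes between 3 dpi and ActD sham was −0.55 in microglia, −0.47 in macrophages and 1.10 in neutrophils on the log2 scale, and the members' median was 2.85, 2.31 and 0.97.

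The other genes of the pathways were counted in the same way. Of 16 genes of arginine handling, 11 could be compared in macrophages between 3 dpi and ActD sham, 2 were higher and 3 lower, beside 10.2% and 30.4% of all genes, so the lower share is near the background. Asl, which splits argininosuccinate into arginine and fumarate, went from 22.3 to 53.2 CPM, and Slc3a2, a partner chain of amino acid transporters, from 141 to 305 CPM. Gatm, which starts creatine synthesis from arginine, went down from 262 to 35.2 CPM, and Ddah2 and P4ha1 had log2 ratios of −1.46 and −1.05, both calls lost with TMM scaling. In border macrophages 3 of 10 were higher, Slc7a1, Slc3a2 and Asl, and Gatm was lower with a log2 ratio of −2.20, beside 11.6% and 19.2% of all genes. In microglia 1 of 12 was higher and 3 were lower, neither share above the 13.6% and 33.6% of all genes. Ddah2, which breaks down methylarginines, went from 59.7 to 12.9 CPM and P4ha1, a prolyl hydroxylase subunit, from 250 to 60.1 CPM, and Gatm had a log2 ratio of −1.18, lost with TMM scaling. The 1 higher was Nos3 at 1.30 against 0.227 CPM, which fell outside the rule for named genes for its low UMIs and was named after its values were seen.

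Of 5 genes making the nitric oxide synthase cofactor tetrahydrobiopterin, 4 were compared. Gch1, the first and limiting enzyme of that synthesis, went from 11.1 to 33.0 CPM in macrophages and from 6.99 to 19.2 CPM in microglia between the ActD sham and 3 dpi, while Pts, the next enzyme, had a log2 ratio of −1.46 in macrophages, lost with TMM scaling, and of −1.91 in microglia. Gch1 was also 1.93 higher in microglia of the standard than of the ActD sham.

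The 13 genes of polyamine synthesis, control and use stayed close to sham in macrophages, with 0 higher and 2 lower of 13, beside 10.2% and 30.4% of all genes (Amd1 at a log2 ratio of −1.42 and Sat2 at −1.37, both lost with TMM scaling) and a median of 0.05 on the log2 scale. In border macrophages Azin1, the antizyme inhibitor, was higher by 1.04 on the log2 scale and Amd1, which makes the aminopropyl donor, had a log2 ratio of −1.44. Microglia had Eif5a, the factor that carries the polyamine-derived hypusine, higher at 525 against 218 CPM, Paox higher by 1.19, and Amd1 and Smox lower with log2 ratios of −1.36 and −1.20, the last 2 calls lost with TMM scaling.

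Of 15 further alternative activation genes, 13 were compared in macrophages, 2 higher and 7 lower at 3 dpi than in the ActD sham, beside 10.2% and 30.4% of all genes. Tgm2, transglutaminase 2, went from 4.77 to 265 CPM and Klf4, a transcription factor, from 44.5 to 158 CPM. Mgl2 went down from 923 to 1.08 CPM, Cd163 from 670 to 14.3 CPM and Clec10a from 303 to 12.2 CPM, all lectin or scavenger receptors of resident macrophages, and the receptor chain Il13ra1 from 79.5 to 23.1 CPM. At 3 dpi an unnamed cluster of 295 cells had Mgl2 among its leading genes, and another of 96 cells had Clec10a. Both lay outside the macrophage sums, and how far the Mgl2 and Clec10a levels depend on the naming was not tested. In border macrophages alone 4 of 10 were higher (Tgm2, Klf4, Ccl24 and Il4ra) and 4 lower, beside 11.6% and 19.2% of all genes. Among the lower were Mgl2, Clec10a and Cd163 with log2 ratios of −7.32, −3.32 and −2.23. Cd163 was one of the genes that named the border clusters. Klf4 was 990 CPM in the standard sham macrophages, 4.47 above the ActD sham on the log2 scale.

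In microglia at 3 dpi 6 of 12 alternative activation genes were higher and 4 lower, beside 13.6% and 33.6% of all genes, so the lower share is at the background. Clec10a and Cd163 were higher by 3.22 and 2.94 but at 2.66 and 3.05 CPM. Klf4 went from 9.67 to 60.3 CPM and Tgm2 from 39.9 to 107 CPM. Irf4, Mgl2, Socs1 and Il13ra1 were lower, with log2 ratios of −2.17, −2.10, −1.64 and −1.46. Set against the B cells of 3 dpi by CPM, 1 of 11 alternative activation genes was at least 2-fold higher in microglia and 2 were lower. Of all genes 17.4% were higher and 19.6% lower. The part of free RNA in these microglial levels was not tested. Between 14 and 3 dpi Tgm2, Klf4 and Ccl24 were lower in both classes, with log2 ratios of −2.84, −2.72 and −2.42 in macrophages and −2.51, −3.31 and −2.55 in microglia, and Socs1 was higher, by 1.70 and 1.22. Mgl2 and Cd163 were higher again in macrophages by 4.99 and 1.56.

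At 14 dpi relative to the ActD sham, macrophages had Tgm2 still higher by 2.96 and Gch1 by 1.19, and Mgl2, Cd163, Clec10a and Ccl24 lower with log2 ratios of −4.75, −3.99, −3.63 and −2.45. Gatm and Ddah2 had log2 ratios of −1.79 and −1.57, and 0 of 12 polyamine genes were past 2-fold, where 7.44% of all genes were higher and 12.7% lower. Microglia had Gch1 and Paox higher by 1.03 and 1.26, and Ddah2, Mgl2 and Irf4 lower with log2 ratios of −1.61, −2.30 and −2.15.

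Across 40 class and library sums the genes whose log2(CPM + 1) ran closest to Arg1 among 12282 genes were Pdpn (Pearson r 0.949), F7 (0.931), Ppbp (0.892), AY036118 (0.868) and mt-Atp8 (0.867). For Mrc1 they were Serpinb8 (0.863), Cbr2 (0.860), Ms4a14 (0.823), Cd163 (0.802) and Fcna (0.793), and for Chil3 Gda (0.899), Hp (0.897), Clec4e (0.870), Trem3 (0.864) and Trem1 (0.862). The sums share libraries and with them depth and free RNA, so the values describe likeness of pattern in these 4 libraries. Among the members the closest pair was Arg2 and Chil3 (0.729), followed by Arg1 and Slc7a2 (0.645) and Retnla and Mrc1 (0.581).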

How the data were processed

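The deposited files held UMI counts per gene and barcode for 4 single-cell 3′ libraries. Cell Ranger and the mm10 build are named in the submitters' processing notes, and the matrix headers give software version 3.0.1 (standard sham, 3 dpi) and 3.1.0 (ActD sham, 14 dpi). Libraries held 27447471 to 129935880 UMIs. Cells with under 600 genes, over 10% mitochondrial UMIs, or Itgam together with a lymphoid marker were left out, as were the cells with the highest doublet scores of Scrublet in scanpy 1.11.5 (0.8% per 1000 barcodes; the authors used DoubletFinder). Libraries were integrated in Seurat 5.3.0 (2000 features without the members, 50 dimensions, resolution 0.6, R 4.3.3), and mixed clusters were divided again. Clusters were named per library from fixed markers, needing 3 markers and a score of 0.6, thresholds set after the clusters were seen. Counts were summed per class and library. Poisson, binomial and conditional binomial intervals are exact and at 95% (scipy 1.17.1), and cover counting error alone. Only the conditional binomial intervals, those of ratios, were tested on simulated data. The simulated counts were Poisson draws, with no spread between cells or libraries. TMM scaling came from edgeR 4.0.16. Classes needed 20 cells. Named were all members and, per list and direction, at most 4 genes past 2-fold with 50 or more UMIs. Shares used cells thinned to 1000 or 5000 UMIs. Positions came from GENCODE M21, which held 30934 of the 31053 gene identifiers. The members and lists were chosen with earlier results of these data known.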

Additional observations from a re-analysis of the deposited data

Results flagged for a closer look

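Mrc1 differed in direction between classes. Between 3 dpi and the ActD sham its log2 ratio was −4.91 in macrophages and 2.64 in microglia, and between 14 dpi and the ActD sham −3.13 in macrophages and 1.87 in microglia. The Mrc1 level of microglia after injury was within 2-fold of that in B cells, which held 4 Mrc1 UMIs at 3 dpi. All macrophages of the sham were border macrophages, and within border macrophages the Mrc1 ratios were −2.54 and −1.33. Slc7a2 between 14 dpi and the ActD sham had a log2 ratio of 3.57 in macrophages, on 52 and 1 UMIs, and of −1.34 in microglia, on 12 and 11 UMIs, the latter a call lost with TMM scaling. Each condition is 1 library, so the difference between macrophages and microglia was not tested for either gene.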

How the results depend on the processing

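No paired analysis was possible because each condition is 1 library, and for the same reason no library could be left out. Of 6 results only the log2 ratio of Mrc1 has a sign that could reverse, and it stayed positive in every alternative that gave a value. The others are a level, shares and a count. Under some alternatives the Arg1 level and the Arg1 share moved outside their counting intervals. With TMM scaling the Arg1 level of macrophages at 3 dpi was 6177 CPM in place of 4365 and the log2 ratio of Mrc1 between border and other macrophages 2.47 in place of 2.92. With each cell named on its own they were 3740 CPM and 1.85, with each library clustered alone 4525 CPM and 2.51, and with cells holding Itgam and a lymphoid marker kept 4291 CPM and 3.10. A stricter cell filter gave 4486 CPM, a looser one a ratio of 3.03, and no doublets removed 4269 CPM and a ratio of 3.10. Under the stricter filter 0 cells of 3 dpi fell in a cluster named border macrophage, so it gave no Mrc1 ratio. The share of macrophages with an Arg1 UMI, 81.5% of cells thinned to 1000 UMIs, was 69.3% at 500 UMIs, 93.3% at 3000 UMIs and 73.2% with each cell named on its own. The share with a Nos2 UMI, 0.367%, ran from 0.214 to 0.516% over the alternatives, and separate draws of 3000, 5000 and 10000 UMIs put it at 0.781, 0.903 and 1.32%, outside its counting interval. The clusters found with no doublets removed also changed with the number of computing threads, which was set to 1. Apart from the scaling and the thinning depth, the cause was not tested. The Nos2 share among Arg1-positive macrophages, 0.938%, ran from 0.803 to 1.34%, and the members past 2-fold in microglia, 6, from 5 to 8. Depth limits Nos2, Slc7a2 and Retnla most, since many sums held 3 UMIs or fewer.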

Other observations

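Ass1 was high in myeloid-progenitor-like cells of the shams and 14 dpi, but not at 3 dpi. They held 196 CPM of Ass1 in the standard sham, 324 in the ActD sham, 41.0 at 3 dpi and 123 at 14 dpi. The level lay in the cluster led by Ctsg, Mpo and Elane, granule protease genes of early granulocytes, with 247, 324 and 193 CPM in the standard sham, ActD sham and 14 dpi, and not in the later Fcnb- and Camp-led cluster, with 10.9 and 2.33 CPM of Ass1 in the standard sham and at 14 dpi. The progenitor level of 3 dpi rests on 18 Ass1 UMIs in 43 cells, with a median depth of 8603 UMIs against 21768 at 14 dpi. Those 43 cells formed a cluster led by Ctsg, Elane and Prtn3, without Mpo or Ms4a3 among its leading genes. The lower level of 3 dpi therefore cannot be told apart from a difference between kinds of progenitor. Dendritic-cell-like cells held 74.9 CPM of Ass1 at 3 dpi and 106 CPM at 14 dpi, and T cells 49.9 and 80.5 CPM. T cells held 195, 77.1 and 125 CPM of Odc1 in the standard sham, 3 dpi and 14 dpi libraries.

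Rare members were carried by few cells. In the ActD sham 359 Retnla UMIs came from 2 of 19 cells of an unnamed cluster, 310 of them from 1 cell. At 14 dpi 46 Slc7a2 UMIs came from 10 of 61 cells of an unnamed cluster led by H2-Eb1 and Cd209a, close to the 49 UMIs of the 263 other macrophages. At 3 dpi 23 Slc7a2 UMIs came from 12 of 45 fibroblast-like cells.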
